A study of Mus musculus with 4 samples.

Results

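The genes described here are 10 Fc receptor and phagocytosis genes: the IgG receptors Fcgr1, Fcgr2b, Fcgr3 and Fcgr4, the signaling adaptors Fcer1g and Tyrobp, the kinase Syk, and the phagocytic receptors Sirpa, Mertk and Axl. They were chosen by symbol from the 32285 genes listed in the files, and all 10 were found. Their unique molecular identifiers (UMIs, each a tagged mRNA molecule) were counted per cell class in 4 single-cell RNA-seq libraries of Dalton's lymphoma ascites (DLA) tumors. DLA is a transplantable mouse tumor, here grown after intraperitoneal injection into Swiss albino mice whose age and sex are not given. Control 1 and Control 2 came from tumors labelled untreated, which a supplementary caption calls vehicle controls. Treated 1 and Treated 2 came from mice given SP11, an HSP90 inhibitor, orally at 30 mg/kg for 17 days. All tumors were dissociated with collagenase IV and DNase I, and red cells were lysed. The sources do not say whether a library holds 1 animal, so the p-values measure the spread between these libraries.

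Fc gamma receptors bind the constant part of IgG and let myeloid cells take up or kill antibody-coated targets. The activating receptors Fcgr1, Fcgr3 and Fcgr4 signal through Fcer1g, the shared gamma chain, whose immunoreceptor tyrosine-based activation motif (ITAM) recruits Syk once Src-family kinases have phosphorylated it. Fcgr2b carries an inhibitory motif (ITIM) and dampens the same signal, so the level of activating against inhibitory receptors sets how readily a cell responds to immune complexes. Tyrobp (DAP12) is an ITAM adaptor for other receptors such as Trem1 and Trem2. Sirpa is the inhibitory receptor for Cd47 on target cells. Mertk and Axl are receptor tyrosine kinases that bind dying cells through Gas6, and Mertk also does so through Pros1.

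The motifs that divide these genes into activating and inhibitory sides were read from the coding strand of their transcripts in the mouse GENCODE annotation (GRCm38), because the balance below rests on this division. Each is printed 5′ to 3′ with its tyrosine codons in capitals.
Fcer1g, ITAM, coding bases 193 to 237: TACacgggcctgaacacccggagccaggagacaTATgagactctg
Tyrobp, ITAM, coding bases 274 to 318: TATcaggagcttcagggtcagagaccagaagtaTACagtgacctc
Fcgr2b, ITIM, coding bases 949 to 966: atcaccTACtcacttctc
Sirpa, ITIM, coding bases 1312 to 1329: atcacaTACgcagacctg
Sirpa, ITIM, coding bases 1384 to 1401: acagaaTATgcaagcatt
Sirpa, ITIM, coding bases 1435 to 1452: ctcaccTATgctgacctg
Sirpa, ITIM, coding bases 1507 to 1524: tcagagTATgctagtgtc
The adaptors have 1 ITAM each, in coding sequences of 86 codons for Fcer1g and 114 for Tyrobp. Fcgr2b has 1 ITIM among 340 codons and Sirpa has 4 among 513. A search for the ITAM in the coding sequences of Fcgr1, Fcgr3 and Fcgr4 found none.

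Of the receptor genes, 3 lie close together on chromosome 1 in GRCm38, with Fcgr2b at chr1:170958617-170976547 on the minus strand, Fcgr4 at chr1:171018920-171029761 on the plus strand and Fcgr3 at chr1:171051174-171064935 on the minus strand. Fcer1g is at chr1:171229572-171234365 (minus), and Fcgr1 lies apart at chr3:96282909-96293969 (minus). The remaining members are Tyrobp at chr7:30413760-30417585 (plus), Axl at chr7:25757273-25788705 (minus), Syk at chr13:52583173-52648792 (plus), Sirpa at chr2:129592835-129632228 (plus) and Mertk at chr2:128698956-128802894 (plus). Fcgr2b and Fcgr3 shared a run of 129 identical bases in their transcripts, but the longest run shared by the last 500 bases, from which 3′ libraries read, was 9 bases. The other pairs of Fc gamma receptors shared at most 14 bases. Fcgr2b overlaps the antisense gene Gm38204 and Mertk overlaps Gm14011, and how the counting treated strand is not given in the sources used here, so reads of these pairs may be split.

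The upstream regions of Fcgr1, Fcgr4 and Fcgr2b are shown because Fcgr1 and Fcgr4 were found in the same myeloid classes below, whereas Fcgr2b was also found in B cells. Each runs from 250 bases before to 50 after the RefSeq start (GRCm38.p6), on the gene's own strand. Capitals mark GAGGAA, a sequence of the kind bound by ETS factors such as PU.1, and the interferon-stimulated response element repeat, in which a GAAA follows another GAAA after 2 bases, on either strand.
Fcgr1, chr3:96293920-96294219, minus strand: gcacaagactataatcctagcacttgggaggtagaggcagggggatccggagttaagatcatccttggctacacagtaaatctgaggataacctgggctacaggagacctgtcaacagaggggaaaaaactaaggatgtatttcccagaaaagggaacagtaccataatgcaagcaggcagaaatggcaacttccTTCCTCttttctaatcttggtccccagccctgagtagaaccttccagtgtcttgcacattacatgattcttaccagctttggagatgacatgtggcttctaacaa
Fcgr4, chr1:171018676-171018975, plus strand: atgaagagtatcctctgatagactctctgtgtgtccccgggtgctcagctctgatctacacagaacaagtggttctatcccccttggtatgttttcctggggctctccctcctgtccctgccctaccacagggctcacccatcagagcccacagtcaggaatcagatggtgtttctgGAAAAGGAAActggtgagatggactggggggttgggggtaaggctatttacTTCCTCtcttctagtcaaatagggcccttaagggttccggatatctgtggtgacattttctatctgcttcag
Fcgr2b, chr1:170976022-170976321, minus strand: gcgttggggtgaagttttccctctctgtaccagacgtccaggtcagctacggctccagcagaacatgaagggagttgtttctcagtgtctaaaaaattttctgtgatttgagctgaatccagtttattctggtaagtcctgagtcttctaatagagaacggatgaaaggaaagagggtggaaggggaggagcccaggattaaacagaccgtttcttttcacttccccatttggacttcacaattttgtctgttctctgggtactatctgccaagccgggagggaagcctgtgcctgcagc
The Fcgr1 window held GAGGAA 1 time, the Fcgr4 window held 1 match of each motif, which did not overlap, and the Fcgr2b window held 0. The Fcgr1 and Fcgr4 windows cross the start of the gene spans given above. The Fcgr2b window lies wholly inside its span, so its count is for a start within the annotated gene. Of the other members with a window, Axl and both windows of Fcgr3 held GAGGAA 1 time, and Fcer1g and Mertk 0 times. The Syk windows held it 0 times (chr13:52583187-52583486) and 1 time (chr13:52596632-52596931). The motif therefore did not follow the class in which a member was found, and its part was not tested. Of 32851 promoters of the same length, 28.3% held GAGGAA and 3.44% held the GAAA repeat.

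Cells were put into classes by UMIs of a few marker genes, none of them a member. Keratin-positive cells, taken as the tumor cells, had at least 5 UMIs of Krt8 and Krt18. Control 1 had 840 such cells and Control 2 had 526, and Treated 1 and Treated 2 had 1178 and 565. The labels call the cells lymphoma, yet in these cells the keratin and epithelial markers summed to between 4171 and 7479 CPM (UMIs per 1000000 non-hemoglobin UMIs of the class), against 0.211 to 5.23 CPM for the leukocyte gene Ptprc. The 7 detected of 9 markers on that list leave the label and the data in disagreement, so the class is called keratin-positive throughout. Myeloid cells numbered 35, 21, 236 and 149 in the order Control 1, Control 2, Treated 1, Treated 2, which is kept below wherever 4 values follow each other. Among them, cells with more Fn1 and Vcan UMIs than Ccl2, Saa3 and Spp1 UMIs were the Fn1-type (6, 5, 164 and 109 cells), and those with more of the latter were the Ccl2-type (18, 15, 32 and 23 cells). The types overlapped: the Fn1-type of the treated libraries held the Ccl2-type marker list at 10157 and 10871 CPM, against 20361 and 15970 CPM in the Ccl2-type. Neutrophils numbered 4, 3, 21 and 58, B cells 1, 0, 155 and 144, and T cells 10, 1, 16 and 82, so the controls gave levels for keratin-positive and Ccl2-type cells but few UMIs elsewhere.

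The libraries held between 9574906 and 13024964 UMIs in 566 to 1831 kept cells, with a median of 7122 to 16651 UMIs per cell. Between 25.3% and 35.5% of the kept cells of a library had a barcode also found in another library. Treated 1 and Treated 2 shared the most, 215 barcodes, of which 68 were of the same class in both. Every call of a member below was therefore repeated without these barcodes, and the value is given where the call was lost. Hemoglobin took 0.0717%, 0.0857%, 1.48% and 1.25% of the UMIs, again in that order, and was left out of all totals.

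Fcgr1, the high-affinity activating receptor, was higher in Ccl2-type cells than in any other class with at least 10 cells of the same library, with 482, 318, 502 and 824 CPM from 17, 14, 19 and 62 UMIs. In Fn1-type cells of the treated libraries it stood at 166.5 and 245 CPM, below every Ccl2-type value. The few Fn1-type cells of the controls, too few for a sum, held 8 and 9 Fcgr1 UMIs, 783 and 676 CPM. Neutrophils of the treated libraries held 4 and 3 Fcgr1 UMIs, 296.5 and 65.6 CPM, a range that spans the Fn1-type values. B cells held 0 Fcgr1 UMIs in both treated libraries, where 3 counts would have been 19.8 and 12.5 CPM, and T cells held 0. Counted against 3 UMIs over both treated libraries, Fn1-type cells had at least 26.9-fold more Fcgr1 than B cells and at least 6.39-fold more than T cells. Keratin-positive cells held 0.317 to 1.05 CPM.

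Fcgr3, the low-affinity activating receptor, was also higher there than in the other classes of the same library with at least 10 cells, with 454, 476, 344 and 505 CPM in Ccl2-type cells and 236 and 317 CPM in the Fn1-type cells of the treated libraries. All Ccl2-type values lay above both Fn1-type values, but by less than 1.5-fold at the nearest pair. Neutrophils held 222 and 153 CPM from 3 and 7 UMIs, and it was the only Fc gamma receptor seen in the neutrophils of the controls, with 3 UMIs in each. B cells held 1 and 0 UMIs and T cells 0, 0, 1 and 0. Fcgr4, the other activating receptor, had 284, 340, 238 and 120 CPM in Ccl2-type cells, with Treated 2 lowest. In the Fn1-type of the treated libraries it had 59.1 and 102 CPM, below all 4 Ccl2-type values, and neutrophils held 2 and 1 UMIs. B cells and T cells held 0 Fcgr4 UMIs, so that Fn1-type cells had at least 10.6-fold more than B cells.

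Fcgr2b, the inhibitory receptor, stood at 454, 386 (from 17 UMIs), 370 and 452 CPM in Ccl2-type cells and at 242 and 204 CPM in the Fn1-type of the treated libraries. Its highest level in a sum of at least 10 cells was 795.5 CPM, from 13 UMIs, in the 11 other myeloid cells of Control 1, those with no excess of either marker set. Unlike Fcgr1 and Fcgr4 it was also found in B cells, where it had 12 and 22 UMIs, 79.2 and 91.9 CPM. T cells of the treated libraries, which should lack it, held 0 UMIs in 16 and 82 cells, with a limit of 237 and 37.5 CPM, so the B cell level stood above the limit in Treated 2 and below it in Treated 1. In Control 1, 1 of 10 T cells had an Fcgr2b UMI, 140 CPM, which is above the B cell level. By level alone, these few T cells therefore do not separate B cells from background. The mix of receptors differed: beside their Fcgr2b UMIs, the B cells held 1 and 0 activating UMIs. Keratin-positive cells of the treated libraries held 32 and 29 activating beside 21 and 6 Fcgr2b UMIs. The source of these UMIs was not tested. Median depth was 815 and 1499 UMIs per B cell and 552.5 and 848 per T cell. Neutrophils held 1 and 3 UMIs, and keratin-positive cells 0.208 to 1.83 CPM. The few Fn1-type cells of the controls held 8 and 6 Fcgr2b, 14 and 2 Fcgr3 and 3 and 6 Fcgr4 UMIs. Their sums were 10219 and 13315 UMIs, against 35263 and 44099 in the Ccl2-type of the controls. Per UMI of the sum, Fcgr2b and Fcgr4 stood above the Ccl2-type of the same library in both controls, and Fcgr3 in Control 1 alone. The lower Fn1-type levels given above are thus those of the treated libraries, and the control sums rest on few UMIs.

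**Figure D1:**
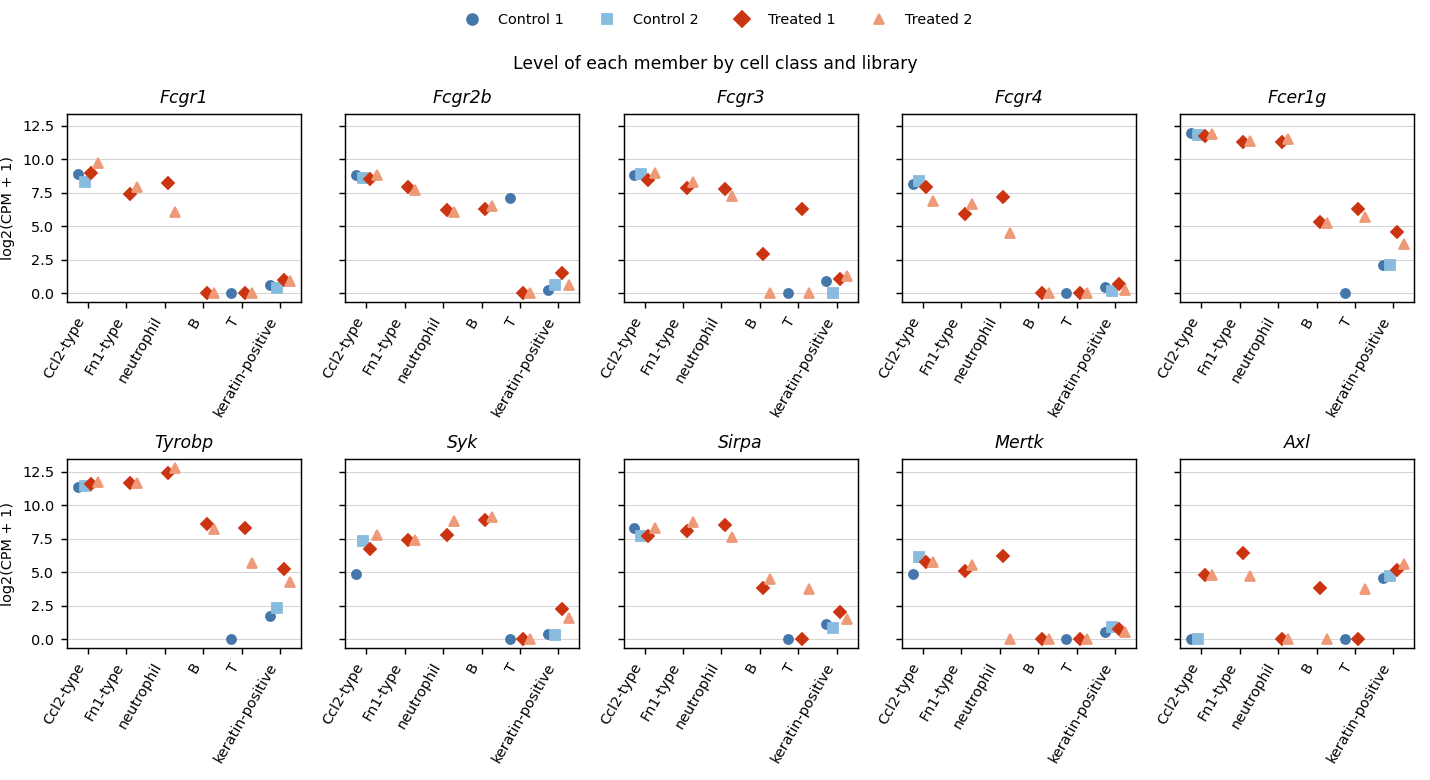
Level of each gene as log2(CPM + 1) (vertical axis) in 6 cell classes (horizontal axis; other myeloid cells are not drawn), 1 point per library with at least 10 cells of the class. Of the classes drawn, Fcgr1, Fcgr2b and Fcgr3 points were highest in Ccl2-type cells, Tyrobp points in neutrophils and Syk points in B cells, and Axl points lay between 23.0 and 47.8 CPM in keratin-positive cells.

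The balance was taken as the share of activating UMIs (Fcgr1, Fcgr3 and Fcgr4) among the UMIs of all 4 Fc gamma receptors. It compares classes and libraries on the same genes and is not a ratio of proteins. In myeloid cells about 7 in 10 receptor UMIs were activating in every library, and B cells stood apart with almost none. Ccl2-type cells had an activating share of 72.9% of 59 UMIs in Control 1 (95% Clopper-Pearson interval 59.7% to 83.6%, for counting error only), 74.6% of 67 in Control 2 (62.5% to 84.5%), 74.5% of 55 in Treated 1 (61% to 85.3%) and 76.2% of 143 in Treated 2 (68.4% to 82.9%). The 4 intervals overlapped. The treated mean was 75.4% ± 1.19 and the control mean 73.8% ± 1.23 (SD, n = 2), a difference of 1.63 points with a two-sided exact permutation p of 0.667. The smallest p that 2 libraries against 2 allow is 0.333. Without shared barcodes the sign turned, with shares of 76.6%, 80%, 70.5% and 74.7% from 47, 45, 44 and 87 UMIs. Both treated libraries then lay below both controls, and the difference was -5.71 points (exact permutation p = 0.333). Control 2 had 8 Ccl2-type cells in that setting, under the minimum of 10 for a sum.

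Over all myeloid cells the activating share was 70.2% of 124 UMIs, 74.4% of 90, 68.2% of 214 and 75.9% of 344. The groups overlapped, with treated libraries both lowest and highest. Treated libraries averaged 72.0% ± 5.41 and controls 72.3% ± 3.03 (SD, n = 2), which differ by -0.255 points (two-sided exact permutation p = 1), and the sign of so small a difference turned under stricter gates, to 0.508 points. After every cell was thinned to 500 UMIs, the shares were 83.3%, 77.8%, 67.7% and 73.9%, both treated libraries lay below both controls by a mean difference of -9.745 points, and the exact p was 0.333, the smallest possible. These thinned shares rest on 30, 18, 96 and 69 UMIs.

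In Fn1-type cells the share was 65.6% of 131 UMIs in Treated 1 (56.9% to 73.7%) and 76.5% of 170 in Treated 2 (69.4% to 82.6%). Treated 1 alone gave a lower share in the Fn1-type than in the Ccl2-type. The Fn1-type mean, 71.1% ± 7.65, was 4.33 points below the Ccl2-type mean within the treated libraries, but the Fn1-type minus Ccl2-type difference was -8.90 points in Treated 1 and 0.247 points in Treated 2, so it rests on 1 library. With shared barcodes left out the mean difference was 0.00309 points. The 33 and 23 receptor UMIs of the few control Fn1-type cells were 75.8% and 73.9% activating.

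Neutrophils of the treated libraries had 90% activating of 10 UMIs (55.5% to 99.8%) and 78.6% of 14 (49.2% to 95.3%), intervals that include the myeloid values. B cells had 1 activating UMI of 13 in Treated 1, 7.69% (0.195% to 36.0%), and 0 of 22 in Treated 2 (0% to 15.4%). These B cell intervals did not meet those of the Fn1-type or Ccl2-type in either treated library. The composition differed less between myeloid types than between B cells and the rest. In Ccl2-type cells Fcgr4 made up 16.95%, 22.4%, 16.4% and 6.29% of receptor UMIs and Fcgr1 made up 28.8%, 20.9%, 34.5% and 43.4%, with Treated 2 the lowest for Fcgr4 and the highest for Fcgr1. In the Fn1-type of Treated 1 and Treated 2, Fcgr3 was the most frequent activating receptor, with 33.6% and 36.5%.

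**Figure D2:**
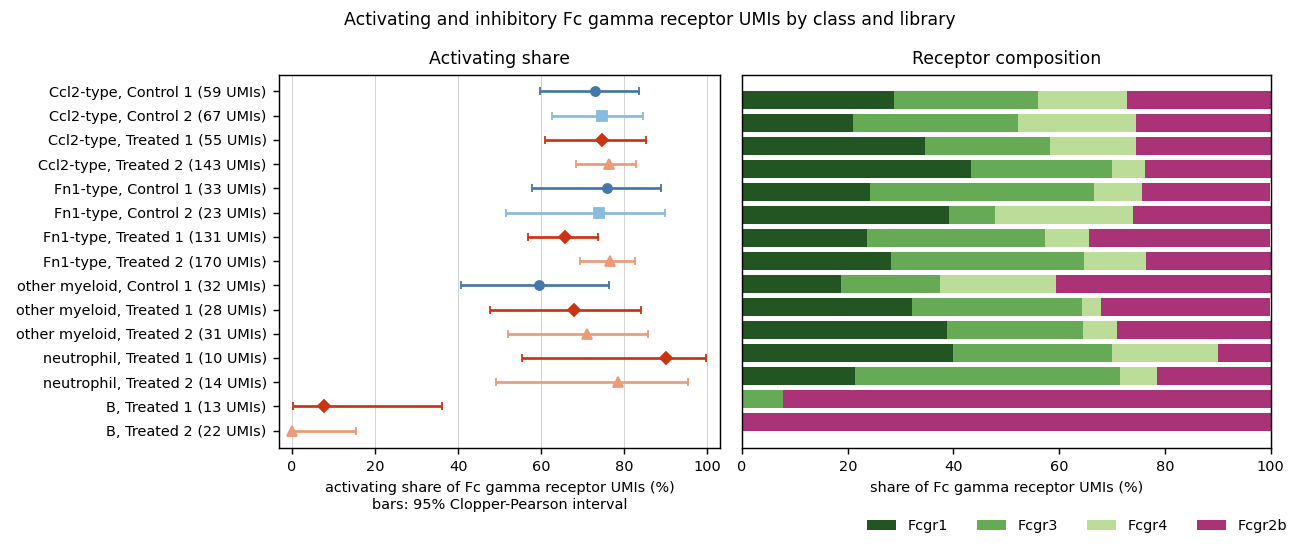
Left, share of activating Fc gamma receptor UMIs (horizontal axis, %) for each class and library with at least 10 receptor UMIs, with 95% Clopper-Pearson intervals. Right, the same UMIs split by receptor (%). Myeloid classes and neutrophils lay between 59.4% and 90% activating, and B cells at 7.69% and 0%.

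Some single cells held both kinds of receptor. In Ccl2-type cells 50%, 66.7%, 25% and 69.6% of cells had UMIs of an activating receptor and of Fcgr2b, and 11.1%, 0%, 37.5% and 13.04% had neither, at median depths of 1738, 2441, 1115 and 2660 UMIs per cell. In the Fn1-type of the treated libraries 9.15% and 18.3% of cells had both and 50.6% and 33.9% had neither. The shallower library had the lower share with both in each type. If detection of each kind were independent of the other, shares with both would be 46.3%, 66.7%, 16.7% and 60.5% in the Ccl2-type. In the Fn1-type of the treated libraries they would be 8.2% and 14.8%. In B cells 12 of 155 (7.74%) and 20 of 144 (13.9%) had Fcgr2b UMIs with no activating UMI, and 1 and 0 cells had an activating UMI alone.

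Fcer1g, the gamma chain that the activating receptors need, was even across Ccl2-type cells, with 3885, 3606, 3490 and 3707 CPM. Fn1-type cells of the treated libraries held 2541 and 2635 CPM and neutrophils 2520 and 2910 CPM, all below the Ccl2-type values. B cells held 39.6 and 37.6 CPM and T cells 78.97 and 50.0 CPM, so the B cells were not above the T cell level. Tyrobp, the other adaptor, had its highest level in neutrophils, with 5411 and 7002 CPM in the treated libraries. In Ccl2-type cells it had 2609, 2676, 3120 and 3388 CPM, both treated libraries above both controls, and in the Fn1-type 3271 and 3197 CPM. B cells held 383 and 297 CPM, from 58 and 71 UMIs, against 316 and 50.0 CPM in T cells, from 4 UMIs in each library, so the B cell level stood well above the T cell level in Treated 2 alone.

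The adaptors differed in proportion between classes. Tyrobp made up 40.2%, 42.6%, 47.2% and 47.8% of the UMIs of both adaptors in Ccl2-type cells, and 56.3% (53.3% to 59.3%) and 54.8% (51.9% to 57.7%) in the Fn1-type of the treated libraries. In neutrophils it made up 68.2% (58.5% to 76.9%) and 70.6% (66.2% to 74.8%). In B cells it made up 90.6% (80.7% to 96.5%) of 58 Tyrobp and 6 Fcer1g UMIs and 88.8% (79.7% to 94.7%) of 71 and 9. The B cell intervals lay above those of neutrophils, Fn1-type and keratin-positive cells in the same library. Over all myeloid cells the Tyrobp share was 39.1%, 41.2%, 54.0% and 52.4%, with no overlap between controls and treated libraries, and the Fn1-type made up more of the myeloid cells in the treated libraries. The share was also lower in the few Fn1-type cells of the controls, at 35.4% (22.2% to 50.5%) and 38.6% (27.2% to 51.0%), with intervals below those of the treated Fn1-type. In other myeloid cells it was 38.7% in Control 1 and 51.3% and 51.2% in the treated libraries.

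Syk, the kinase that binds the phosphorylated ITAM, was most abundant in B cells, where it also serves the B cell receptor. B cells held 475 and 564 CPM from 72 and 135 UMIs, neutrophils 222 and 459.5 CPM, the Fn1-type 166.5 and 168.5 CPM, and the Ccl2-type 28.4, 159, 106 and 213 CPM. The Fn1-type and Ccl2-type values overlapped. T cells held 0 UMIs, with a limit of 237 and 37.5 CPM, below both B cell values. Sirpa had 312, 204, 211.5 and 306 CPM in Ccl2-type cells, 269 and 419 CPM in the Fn1-type and 371 and 197 CPM in neutrophils, ranges that overlapped. In B cells Sirpa had 13.2 and 20.9 CPM, and T cells held 1 UMI in all.

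Mertk was rare, with 7, 12, 21 and 18 UMIs in all kept cells of the 4 libraries. In Ccl2-type cells it had 28.4, 68.0, 52.9 and 53.1 CPM from 1 to 4 UMIs, in the Fn1-type of the treated libraries 32.2 and 46.0 CPM from 6 and 9 UMIs, and in B and T cells 0 UMIs. Axl, its relative, was found mainly in the keratin-positive cells, which held 98.7%, 100%, 86.6% and 95.4% of its UMIs. These cells had 23.0, 25.8, 35.1 and 47.8 CPM of Axl, both treated libraries above both controls. Ccl2-type cells held 0, 0, 1 and 2 Axl UMIs. Fn1-type cells of the treated libraries held 16 and 5, 85.9 and 25.5 CPM, above the keratin-positive level in Treated 1 and below it in Treated 2. Tyro3, the third kinase of this family, had 2.50, 1.69, 1.66 and 2.63 CPM in keratin-positive cells and 0 UMIs in every other named class.

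**Figure D3:**
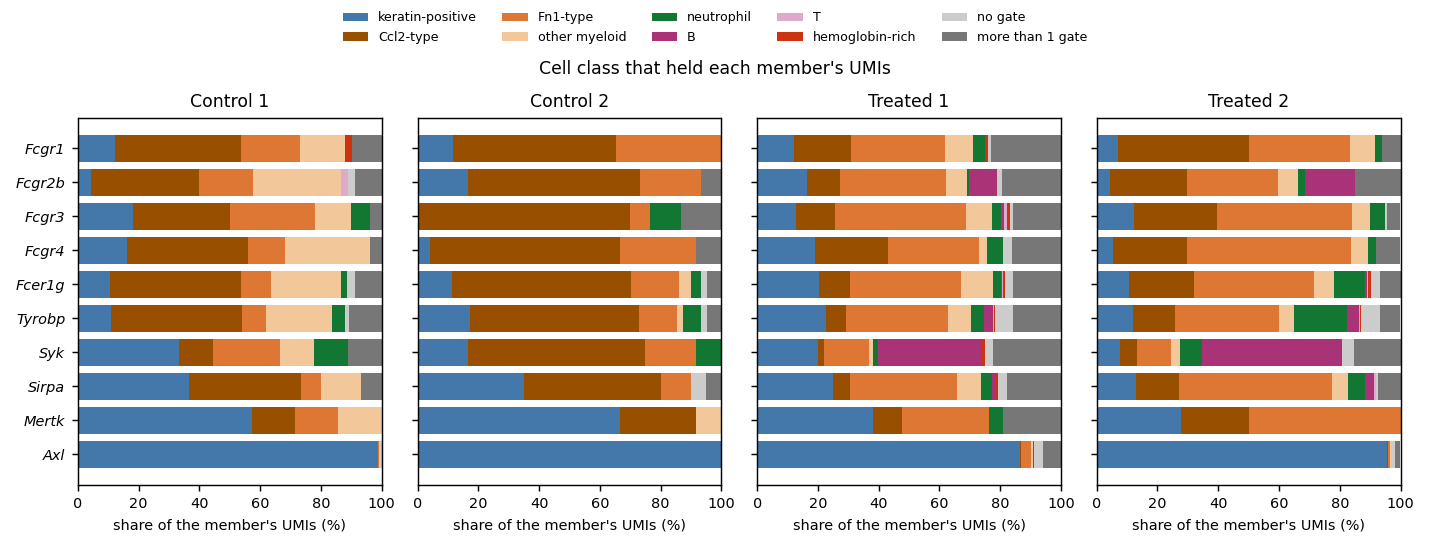
Share of each gene's UMIs (horizontal axis, %) that lay in each cell class, 1 panel per library. Axl bars are mostly keratin-positive, and Syk bars hold B cells, 34.4% and 45.8%, in the treated libraries alone. Fc gamma receptor bars hold more Ccl2-type than Fn1-type UMIs in the controls, which had 18 and 15 Ccl2-type against 6 and 5 Fn1-type cells. The shares are not levels per cell.

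Treated and control libraries were compared on UMIs summed per library, with edgeR's quasi-likelihood test and Benjamini-Hochberg adjustment over all genes tested. A gene was called at an adjusted p under 0.05. Over all kept cells treatment went with a higher level of 8 of the 10 members and a lower level of 0, against 9.11% higher and 1.65% lower of 12145 genes tested. The members' median log2 fold change was 1.25, against -0.01 for all genes. In such sums more cells of a class and more RNA per cell cannot be told apart, and myeloid cells made up 3.82%, 3.71%, 12.9% and 13.7% of the kept cells. Syk had 0.925, 1.25, 16.3 and 22.9 CPM and a log2 ratio of treated over control of 3.98 (SE 0.263, adjusted p = 2.85e-09), beside 1, 0, 155 and 144 B cells. Tyrobp had 21.9, 22.3, 141 and 142 CPM (2.51, SE 0.138, adjusted p = 2.33e-10). Sirpa had 3.08, 2.09, 11.01 and 12.7 CPM (2.02, SE 0.237, adjusted p = 5.50e-06). Fcer1g had 32.6, 28.3, 100.4 and 101 CPM (1.56, SE 0.135, adjusted p = 1.23e-07). In all 4 genes both treated libraries lay several-fold above both controls.

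The receptors were called with smaller ratios in these sums. Fcgr1 had 4.21, 2.72, 7.81 and 11.2 CPM (1.27, SE 0.251, adjusted p = 0.00148) and Fcgr2b had 4.62, 3.14, 10.1 and 10.4 CPM (1.23, SE 0.229, adjusted p = 0.000898). Fcgr3 had 5.14, 3.14, 7.96 and 10.8 CPM (1.00, SE 0.245, adjusted p = 0.00916). That call was lost without Control 2 (adjusted p = 0.103), without Treated 2 (0.0622), without shared barcodes (0.0830) and in DESeq2 (0.0779). Axl had 23.0, 25.5, 36.2 and 45.9 CPM (0.58, SE 0.138, adjusted p = 0.00725), which was lost without Treated 2 (adjusted p = 0.0756). Fcgr4 was not called, with 2.57, 2.51, 2.89 and 2.88 CPM (0.01, SE 0.310, adjusted p = 0.984), and Mertk had 0.719, 1.25, 1.64 and 1.40 CPM (0.45, SE 0.446, adjusted p = 0.589).

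Within myeloid cells the direction was different. Fcgr4 and Fcgr2b were lower in the treated libraries, 2 of 8 members tested and 0 higher, against 5.75% lower and 6.43% higher of 2505 genes (144 and 161 genes; 79 and 27 in DESeq2). Mertk and Axl had too few UMIs to be tested. The members' median was -0.52 against 0.04 for all genes. Fcgr4 had 324, 348, 79.8 and 100 CPM, a log2 ratio of -1.96 (SE 0.396, adjusted p = 7.15e-05), and both treated libraries lay well below both controls. It stayed called in each of 13 alternatives, at values from -2.46 to -1.64. Fcgr2b had 598.5, 381, 258.5 and 268 CPM, both treated libraries below both controls (-0.96, SE 0.315, adjusted p = 0.0272). The Fcgr2b call was lost when any library was left out, with adjusted p of 0.493 without Control 1, 0.0567 without Control 2, 0.191 without Treated 1 and 0.166 without Treated 2, and was 0.0714 without shared barcodes. Fcgr3 (-0.75, SE 0.311, adjusted p = 0.0959), Fcgr1 (-0.58, SE 0.315, 0.241) and Fcer1g (-0.47, SE 0.202, 0.117) also had negative values that missed the threshold. Tyrobp (0.30, SE 0.207), Sirpa (0.39, SE 0.362) and Syk (0.57, SE 0.482) were not called either. The makeup of this class differed between groups, with 18 and 15 of 35 and 21 cells of the Ccl2-type in the controls against 32 and 23 of 236 and 149 in the treated libraries, and its part in these results was not tested.

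Within the Ccl2-type alone, the myeloid type with at least 10 cells in every library, none of 7 members tested was called (Syk, Mertk and Axl had too few UMIs), and neither was any of the 596 genes (0% in either direction). At an unadjusted p under 0.05 there were 55 genes, and DESeq2 called 1 gene, which was no member. Fcgr1 was the only member at an unadjusted p under 0.05 (0.90, SE 0.374, edgeR adjusted p = 0.477). Fcgr4 had -0.82 (SE 0.474, edgeR adjusted p = 0.534), Tyrobp 0.41 (SE 0.201, adjusted p = 0.477) and Sirpa 0.19 (SE 0.432). Fcgr2b (0.11, SE 0.330), Fcgr3 (0.02, SE 0.334) and Fcer1g (0.05, SE 0.203) had values near 0. The Ccl2-type sums rest on 15 to 32 cells a library, and even Fcgr1, at 0.90 with an SE of 0.374, was not called. Changes well beyond 1 SE were thus not detectable at this depth, and the lack of calls does not show that the levels were equal.

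**Figure D4:**
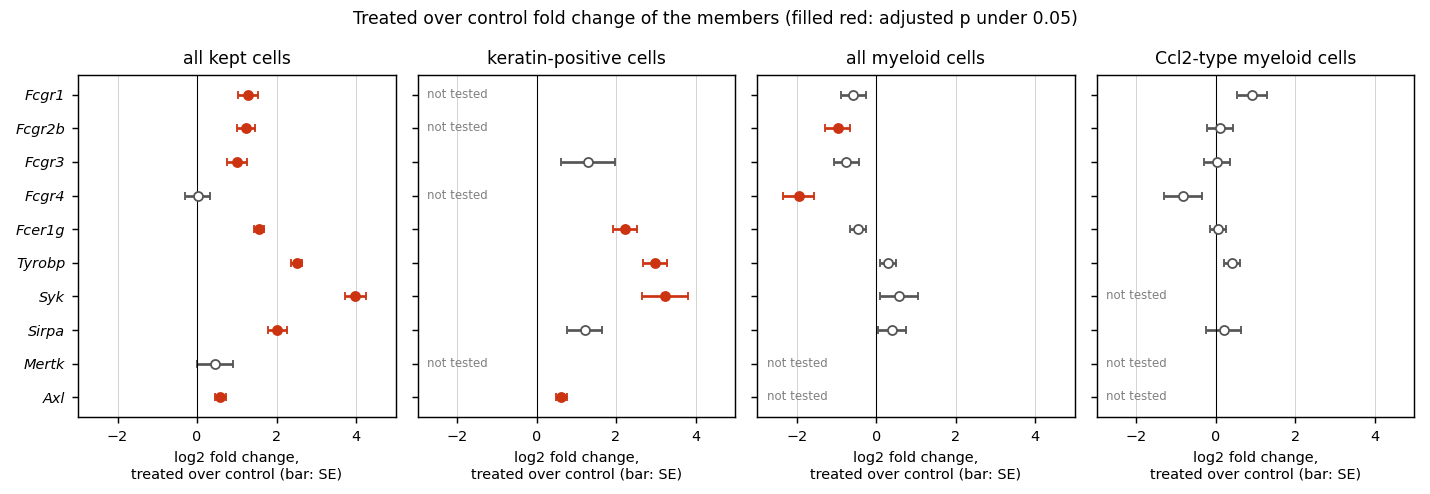
Log2 fold change of treated over control libraries (horizontal axis, bars are SE) for each gene in 4 sets of cells. Filled red points are called at an adjusted p under 0.05 in edgeR, and "not tested" marks genes below the filter on low counts. Calls are 8 higher in all kept cells, 4 higher in keratin-positive cells, 2 lower in all myeloid cells and 0 in the Ccl2-type.

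Keratin-positive cells held few UMIs of the myeloid genes, but more of them in the treated libraries. Of 6 members tested, 4 were higher and 0 lower, against 1.51% higher and 0.557% lower of 11489 genes, and the members' median was 1.76 against -0.01. Tyrobp had 2.39, 3.91, 35.7 and 18.4 CPM (2.98, SE 0.303, adjusted p = 5.08e-06), Fcer1g 3.43, 3.28, 22.7 and 11.6 CPM (2.22, SE 0.296, adjusted p = 0.000128) and Syk 0.312, 0.211, 3.66 and 1.95 CPM (3.23, SE 0.580, adjusted p = 0.00263). In each, Treated 1 was highest and both controls were lowest. Genes of other classes were higher there as well: Lyz2 had 2.60, 3.07, 28.8 and 14.8 CPM, Igkc 0.208, 0.106, 23.3 and 15.6 CPM, S100a8 34.0, 40.9, 70.4 and 66.5 CPM, and the 12 myeloid markers summed to 13.7, 15.8, 64.9 and 38.3 CPM. Sirpa (1.21, SE 0.441, adjusted p = 0.1998) and Fcgr3 (1.29, SE 0.680, adjusted p = 0.410) were not called, and the other 4 members had too few UMIs to be tested.

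Tyrobp UMIs were found in 1.79%, 6.27%, 19.8% and 20.9% of keratin-positive cells, at median depths of 10962, 17212, 8828 and 19757 UMIs. In T cells, taken here as the background, 2 of 16 and 2 of 82 cells of the treated libraries had one at 552.5 and 848 UMIs. After thinning to 500 UMIs per cell the keratin-positive shares were 0%, 0.380%, 1.95% and 1.42%, and the T cell shares of the treated libraries 13.3% (1.66% to 40.5%) and 1.24% (0.0312% to 6.69%). In both treated libraries the thinned keratin-positive share lay inside the T cell interval. These intervals are wide, as they rest on 2 and 1 T cells with a UMI. Before thinning, at the greater depth of keratin-positive cells, their shares lay above the T cell shares of 12.5% and 2.44%. Tyrobp in keratin-positive cells is not read as expression here, and its source was not tested. In keratin-positive cells with no UMI of the myeloid, neutrophil, B or T cell gate genes (540, 245, 403 and 108 cells), an alternative added after seeing the data, Tyrobp had 0.685, 4.37, 19.7 and 8.63 CPM and was still called (log2 fold change 2.67, adjusted p = 0.00257). Fcer1g had 2.40, 4.11, 8.97 and 6.60 CPM there and was not called (1.26, adjusted p = 0.210).

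Axl in keratin-positive cells had much the same level with and without UMIs of the other gates: it had 22.9, 26.7, 36.8 and 45.2 CPM in the cells with no UMI of another gate, close to its values in all of them. Its log2 fold change was 0.62 (SE 0.145, adjusted p = 0.0221) in all keratin-positive cells and 0.61 (adjusted p = 0.170) in that subset. The call was lost without Control 1 (adjusted p = 0.0672), without Treated 2 (0.269) and in DESeq2 (0.118). Axl UMIs were found in 21.8%, 32.9%, 26.2% and 54.3% of the cells, and after thinning in 1.55%, 0.951%, 1.78% and 2.83%.

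**Figure D5:**
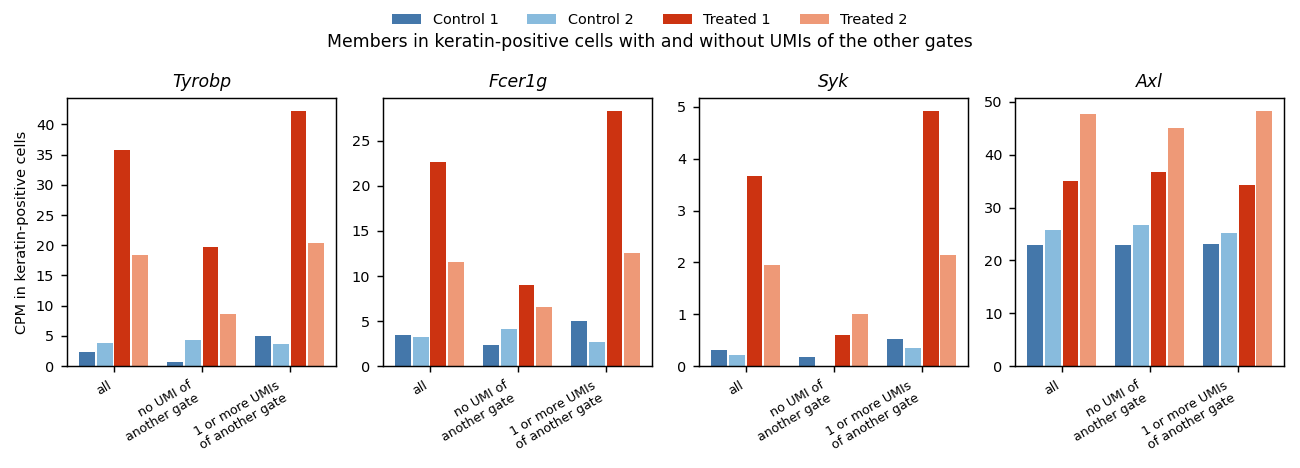
CPM (vertical axis) of Tyrobp, Fcer1g, Syk and Axl in all keratin-positive cells, in those with no UMI of another gate and in those with at least 1, bars by library. Tyrobp of Treated 1 falls from 35.7 to 19.7 CPM in cells with no UMI of another gate, while Axl of Treated 2 goes from 47.8 to 45.2 CPM.

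Whether the treatment difference itself differed between Ccl2-type and keratin-positive cells was tested as an interaction. The fit had no term for the library, although both classes came from the same libraries. Fcer1g and Tyrobp, 2 of 10 members tested, were called, both with the smaller change in the Ccl2-type, against 0.349% of 10883 genes called lower and 0% higher. The interaction was -2.31 (SE 0.336, adjusted p = 7.88e-09) for Fcer1g and -2.71 (SE 0.331, adjusted p = 6.80e-13) for Tyrobp. Syk had -2.42 (SE 0.995, adjusted p = 0.810) and Fcgr1 -0.19 (SE 0.644, adjusted p = 1.00). Without shared barcodes 2 members were called lower, in a fit where Control 2 had 8 Ccl2-type cells, under the minimum of 10.

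The myeloid types were compared within the treated libraries, with the library as a block. Fcgr1 was lower in the Fn1-type than in the Ccl2-type, 1 of 8 members tested, against 1.36% lower and 0.4% higher of 2500 genes; Mertk and Axl had too few UMIs here and in the other class comparisons. Its log2 fold change was -1.80 (SE 0.362, adjusted p = 0.00530), and without shared barcodes it was -1.72 (adjusted p = 0.0683), a lost call. Fcgr2b (-1.02, SE 0.397, adjusted p = 0.251), Fcgr4 (-1.10, SE 0.725), Fcgr3 (-0.73, SE 0.379) and Fcer1g (-0.56, SE 0.253) had lower values that were not called. Tyrobp (-0.10, SE 0.278), Syk (-0.12, SE 0.471) and Sirpa (0.27, SE 0.389) were near 0.

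Neutrophils were compared with the Fn1-type in the same fit, with 8.88% of the genes higher and 5.08% lower (222 and 127 genes; 250 and 68 in DESeq2). Tyrobp was higher, 1 of 8 members tested, at a log2 ratio of 1.07 (SE 0.281, adjusted p = 0.00855), lost in DESeq2 (1.19, adjusted p = 0.0724). Syk had 1.34 (SE 0.471, adjusted p = 0.0544) and Fcgr2b -1.55 (SE 0.751, adjusted p = 0.174), neither called. Fcer1g was at 0.20 (SE 0.272), Fcgr3 at -0.63 (SE 0.560), Fcgr1 at -0.69 (SE 0.641), Sirpa at -0.41 (SE 0.489) and Fcgr4 at -0.47 (SE 1.13). Neutrophils of Treated 1 also held Fn1 at 2076 CPM against 328 CPM in Treated 2, and its part here was not tested.

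B cells against the Fn1-type gave the most calls of any class comparison, with 18.4% of the genes higher and 20.2% lower, and 1 member higher and 6 lower of 8 tested. Syk was higher (2.02, SE 0.290, adjusted p = 1.58e-06). Fcer1g (-5.68, SE 0.379, adjusted p = 2.13e-13), Fcgr3 (-6.35, SE 0.772, adjusted p = 8.93e-08), Sirpa (-3.89, SE 0.499, adjusted p = 2.24e-07) and Tyrobp (-2.89, SE 0.309, adjusted p = 7.46e-09) were lower. Fcgr1 and Fcgr4 were the remaining lower members, at 0 UMIs in B cells, with the bounds given above, and Fcgr4 had too few UMIs to be tested without shared barcodes. Fcgr2b alone was not called lower or higher (-0.97, SE 0.411, adjusted p = 0.0640). With a mitochondrial limit of 20%, 1 member was higher and 7 lower of 8 tested, Fcgr2b among the lower. The members' median was -4.78, or -3.64 with the genes at 0 set to their bound, against 0.04 for all genes.

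Other genes of the pathway were taken from 5 lists, whose log2 ratios are given with their SE. Of 16 genes of ITAM and ITIM signaling, 9 of 15 tested were higher and 0 lower over all kept cells, among them Plcg2 (4.92, SE 0.430), Blnk (4.17, SE 0.592), Inpp5d (3.63, SE 0.305) and Fgr (3.04, SE 0.309), which code for signaling enzymes and a B cell linker. Lyn, the Src-family kinase that phosphorylates ITAMs and ITIMs, was also higher (1.36, SE 0.155). In keratin-positive cells 0 of 10 tested were called, in the Ccl2-type 0 of 2, and in all myeloid cells only Inpp5d, the lipid phosphatase that Fcgr2b recruits, was higher of 9 (1.95, SE 0.680). Lyn had 212 to 438 CPM in Ccl2-type cells, 424 and 602.5 CPM in the Fn1-type, 519 and 985 CPM in neutrophils and 403 and 522 CPM in B cells of the treated libraries. Against the Fn1-type, B cells had 4 of 12 higher, among them Blnk (3.79, SE 0.715), Lat2 (1.43, SE 0.5) and Inpp5d (1.36, SE 0.376), and 2 lower, Lcp2 (-5.21, SE 1.18) and Fgr (-3.21, SE 0.732). Fgr, a Src-family kinase, had 134 and 235 CPM in the Fn1-type, 148 and 700.2 CPM in neutrophils and 13.2 and 16.7 CPM in B cells of the treated libraries. Neutrophils had 0 of 12 called, as did the Fn1-type against the Ccl2-type.

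Of 19 other receptors with ITAM or ITIM partners, 13 of 15 tested were higher over all kept cells. Trem1, which signals through Tyrobp, had 0.206, 0.104, 4.22 and 4.67 CPM (4.57, SE 0.518), and Trem2, which does so too, had 0.514, 2.19, 6.79 and 6.30 CPM (2.10, SE 0.377). In keratin-positive cells 6 of 7 were higher, led by Trem1 (4.56, SE 0.892), Clec4d (3.70, SE 0.544) and Clec4e (3.27, SE 0.439), beside the Lyz2 and S100a8 values given above. In myeloid cells 0 of 10 and in the Ccl2-type 0 of 3 were called. Neutrophils against the Fn1-type had 6 of 12 higher, Pecam1 (4.02, SE 1.37), Trem1 (3.24, SE 0.733), Cd300lf (2.67, SE 0.886), Clec4d (2.37, SE 0.392), Clec4e (2.30, SE 0.334) and Lilr4b (1.99, SE 0.596), and Trem2 lower (-3.49, SE 1.15). B cells had 9 of 12 lower and 2 higher, Pecam1 (5.17, SE 0.893) and Fcrla (2.87, SE 0.643), among the lower ones Clec4e (-6.54, SE 0.785), Clec4d (-6.07, SE 0.853) and Trem2 (-5.94, SE 0.918). Between the myeloid types 0 of 12 were called; Trem2 had 56.7, 318, 291 and 306 CPM in the Ccl2-type and 183 and 240.0 CPM in the Fn1-type of the treated libraries.

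Among 13 ligands and partners, 3 to 5 were tested in the comparisons other than the Ccl2-type alone. Cd47, the ligand of Sirpa, had 99.7, 112, 93.7 and 113 CPM in keratin-positive cells, overlapping between groups (-0.17, SE 0.126, not called). Fcgrt, the neonatal Fc receptor that salvages IgG, was higher in the treated libraries over all kept cells (3.39, SE 0.367), in myeloid cells, where it had 97.0, 33.1, 281 and 181 CPM (1.73, SE 0.508), and in keratin-positive cells (2.46, SE 0.627). The IgG heavy chain genes Ighg1, Ighg2b and Ighg2c had 0 UMIs in both controls. In all kept cells of the treated libraries Ighg1 had 6 and 8 UMIs, Ighg2b 12 and 77, and Ighg2c 4 and 7, and Ighg2b was called higher. Gas6, the ligand shared by Mertk and Axl, had 1 UMI in the 4 libraries, and Pros1, the Mertk ligand, had 0, 2, 21 and 9.

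Of 22 genes for the uptake of dying cells and particles, 14 of 17 tested were higher over all kept cells and 0 lower, led by Dock2 (4.32, SE 0.292) and Rac2 (3.72, SE 0.218), which move the actin skeleton. Timd4, a phosphatidylserine receptor, was also higher (2.88, SE 0.675). Tyro3 (-0.21, SE 0.364) and Mfge8 (0.02, SE 0.149), a bridging protein found in keratin-positive cells at 152 to 213 CPM, were not called. In myeloid cells Dock2 was higher (1.36, SE 0.355) and Anxa1 lower (-0.95, SE 0.342) of 14 tested, and in keratin-positive cells Dock2 (4.52, SE 0.604) and Rac2 (3.41, SE 0.472) were higher of 10. Of 10 oxidase and lysosome genes, 6 were higher over all kept cells, among them the oxidase subunits Ncf1 (4.67, SE 0.321), Cybb (2.49, SE 0.193) and Cyba (2.18, SE 0.147), and the protease Ctsl was lower (-0.50, SE 0.130). In myeloid cells Ncf1 was higher (2.67, SE 0.548) and Ctsl lower (-1.16, SE 0.246). Ctsl was also the single listed gene called between the myeloid types, lower in the Fn1-type (-1.84, SE 0.252). Cybb, the catalytic subunit, had 312, 499, 291 and 571 CPM in the Ccl2-type and 607 and 827 CPM in the Fn1-type of the treated libraries, and was lower in neutrophils than in the Fn1-type (-2.49, SE 0.539), as were Ctsl (-2.54, SE 0.688), Lamp1 (-1.56, SE 0.414) and Ctsb (-1.38, SE 0.368), 4 of 9 tested.

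The same lists in the remaining comparisons read as follows. Keratin-positive cells had 5 of 10 oxidase and lysosome genes higher, among them Ncf1 (3.77, SE 0.681) and Cybb (2.89, SE 0.586). Among uptake genes, neutrophils had Rac2 (1.95, SE 0.362) and Anxa1 (1.49, SE 0.390) higher than the Fn1-type and C3ar1 (-3.61, SE 1.09), Cd36 (-3.59, SE 1.15) and Lrp1 (-2.83, SE 0.886) lower, 2 and 3 of 16. B cells had 11 of 16 uptake genes and 7 of 9 oxidase and lysosome genes lower than the Fn1-type, with only Rac2 higher (1.77, SE 0.271), and 2 of 3 ligands and partners lower, Fcgrt (-4.51, SE 0.717) and Calr (-0.90, SE 0.275). In the Ccl2-type alone 0 of 2 ligands and partners, 0 of 9 uptake and 0 of 8 oxidase and lysosome genes were called between treated and control libraries. The interaction of treatment with class was called, with the smaller change in the Ccl2-type, for genes that included Clec4e (-3.52, SE 0.639), Dock2 (-3.50, SE 0.868), Cybb (-2.70, SE 0.704) and Cyba (-1.87, SE 0.323). Over all kept cells the median log2 ratio was 1.76 for ITAM and ITIM signaling, 2.24 for the other receptors, 0.08 for ligands and partners, 2.20 for uptake and 1.29 for oxidase and lysosome genes, against -0.01 for all genes. In keratin-positive cells the medians in the same order were 0.17, 3.15, -0.05, 0.60 and 1.00, and in myeloid cells 0.80, -0.10, 0.26, 0.72 and 0.25, against 0.04 for all genes there.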

How the data were processed

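Single-cell 3′ RNA-seq (10x Chromium) was done by the authors on 2 control and 2 treated libraries. They deposited raw UMI counts per gene and barcode, made with Cell Ranger 7.1.0 (per the file headers); the build is mm10 in the submitters' processing notes, while the methods text names a human build, and the genes listed are mouse genes. Depth was 9574906 to 13024964 UMIs per library in kept cells; intervals and limits cover counting error only.

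Barcodes with at least 200 genes and at most 10% mitochondrial UMIs were kept. Marker gates, applied to each cell, were keratin-positive (at least 5 UMIs of Krt8 and Krt18), myeloid (at least 3 UMIs and 10 per 10000 of Lyz2, Csf1r, Adgre1, Cd14, Ctss, Cd68, Ms4a6c and Ccr2), neutrophil (at least 5 and 100 per 10000 of S100a8, S100a9 and Retnlg), and B or T cell (at least 2 and 5 per 10000 of Cd79a, Cd79b and Ms4a1, or of Cd3d, Cd3e, Cd3g, Trac, Trbc1 and Trbc2). Cells that passed both the myeloid and the neutrophil gate were classed as neutrophils. Cells that passed any other combination of gates were kept apart. Counts, without 4 hemoglobin genes, were summed per library and class where a class had at least 10 cells, and tested with edgeR 4.0.16 (quasi-likelihood, TMM, filter on low counts, R 4.3.3), adjusted by Benjamini-Hochberg at 0.05 over all genes tested. Class comparisons within the treated libraries had the library as a block, and the interaction of treatment with class had none and no minimum of cells. Scanpy 1.11.5 called doublets, which were kept in the main analysis. DESeq2 1.42.0, no filter, other cell filters, stricter gates, doublets left out, thinning to 500 UMIs and leaving out each library were the alternatives; leaving out shared barcodes, keeping hemoglobin, the keratin-positive subset and the alternatives for the Ccl2-type share were added after seeing the data. Shares were compared by exact permutation. All 10 genes are named; of the other lists, counts, called genes (at most 5 by size) and the leading entries are given. The genes, gates and lists were chosen with earlier results of these data known. Steps were tested on simulated data. Clec7a was not analysed here, and some listed genes are not reported here.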

Additional observations from a re-analysis of the deposited data

Results flagged for a closer look

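The treatment difference of both adaptors was not the same in Ccl2-type and keratin-positive cells. The log2 treated over control ratio in the Ccl2-type minus that in keratin-positive cells was -2.31 for Fcer1g and -2.71 for Tyrobp, both called by the interaction test in edgeR. Fcer1g ranged from 3490 to 3885 CPM in the Ccl2-type of all 4 libraries, with no order between controls and treated libraries. In keratin-positive cells it went from 3.43 and 3.28 CPM to 22.7 and 11.6 CPM, beside Lyz2 at 2.60, 3.07, 28.8 and 14.8 CPM, whose part was not tested.

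Barcodes that the cell filters left out (61, 29, 446 and 392 per library) also held members, more in the treated libraries than in the controls. Fcer1g had 0, 0, 32 and 19 UMIs there, with a mean of 389.7 CPM in the treated libraries. Tyrobp had 1, 0, 53 and 27 UMIs, with a treated mean of 618.1 CPM. Syk had 0, 0, 5 and 6 UMIs, with a treated mean of 79.45 CPM.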

How the results depend on the processing

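None of the 271 alternative values of called members had the opposite sign, while 28 of 397 values of members not called did. Of the counts and shares, 184 alternative values stayed within 1.5 times or within the spread and 20 moved; of the named genes, 249 kept their side of the threshold and 22 lost their call. In myeloid cells 1 member instead of 2 was lower with at least 500 genes per cell, stricter gates, DESeq2, no filter, shared barcodes left out and each library left out (1 to 1), and the member that stayed was Fcgr4 each time. Leaving out a library gave 6 to 8 members higher in all kept cells and 3 to 4 in keratin-positive cells. Keratin-positive cells with no UMI of another gate gave 1 member higher of 3 tested. Without shared barcodes 0 members were lower in the Fn1-type than in the Ccl2-type. In neutrophils against the Fn1-type, 0 members were higher in DESeq2 and with no filter, which called 1 lower, and 2 were higher with hemoglobin kept; with at least 500 genes per cell that comparison was not run, as a sum had under 10 cells. The myeloid activating share differed by -9.745 points after thinning, and its sign turned under stricter gates (0.508) and among libraries left out (-4.079 to 3.569). The Ccl2-type share, 1.63 points higher in treated libraries, differed by -5.714 points without shared barcodes, 0.3578 with at least 500 genes, 4.226 with Fcgr3 left out and 0.7577 to 2.503 with a library left out; these were added after seeing the data. The Fn1-type minus Ccl2-type share was -11.52 points with Fcgr3 left out, 0.00309 without shared barcodes and -8.897 to 0.2468 points in each treated library alone. The causes were not tested.

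Over all genes, DESeq2 called 640 higher and 115 lower in all kept cells against 1106 and 200 in edgeR, 77 and 43 against 174 and 64 in keratin-positive cells, and 13 and 80 against 10 and 34 between the myeloid types. No filter gave 356 and 108 in keratin-positive cells, 102 and 49 against 161 and 144 in myeloid cells, where the median of all genes moved from 0.04 to 0.80, and 84 and 395 against 222 and 127 in neutrophils. In the Ccl2-type, leaving out a library gave 0 to 12 genes higher and 0 to 3 lower, none a member. Between the myeloid types no filter gave 13 higher and 13 lower.

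Equal replicate numbers do not tie the libraries to shared animals in the labels, and deviations of same-numbered libraries correlated at 0.078 in all kept cells, 0.126 in keratin-positive, 0.027 in Ccl2-type and 0.038 in all myeloid cells. With the replicate number as a block, 8 members were higher in all kept cells, 4 higher in keratin-positive cells, 2 lower in myeloid cells and 0 called in the Ccl2-type, as without it. Over all genes the block gave 1508 higher and 710 lower in all kept cells, 536 and 344 in keratin-positive cells, and 6 and 1 in the Ccl2-type. Without the library block, Fcgr1 was at -1.83 in the Fn1-type against the Ccl2-type and Tyrobp at 1.03 in neutrophils, both still called.

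Depth limits several members: per library Mertk had 7 to 21 UMIs, Syk 9 and 12 in the controls, Sirpa 30 and 20 in the controls, and Fcgr1, Fcgr2b, Fcgr3 and Fcgr4 24 to 144 each.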

Other observations

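Across 20 sums of class and library, the genes whose level on the log2(CPM + 1) scale followed each Fc gamma receptor most closely were found among 7829 genes by Pearson's r, as a description, since sums of the same library share cells' processing and depth. Fcgr1 was followed by Ifi202b (r = 0.994), Msr1 (0.986), a scavenger receptor, and Ccl3 (0.984), a chemokine. For Fcgr4 the closest were Ccl2 (0.977), Ccl3 (0.977) and Fcgr1 (0.974), of which Ccl2 is also a gate gene of the Ccl2-type. Fcgr3 was followed by Cd14 (0.972), a gate gene of the myeloid cells, Ctsb (0.945) and Fcer1g (0.941). The inhibitory Fcgr2b had lower values with another set, Irf7 (0.892), H2-DMb1 (0.885), a gene of MHC class II loading, and Pld4 (0.884).

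Cd47, the Sirpa ligand, was found in every named class of Treated 2 and stood at 284 and 326 CPM in B cells of the treated libraries and 397, 340, 291 and 186 CPM in Ccl2-type cells, both treated libraries below both controls (log2 fold change -0.59, SE 0.402, edgeR adjusted p = 0.631, not called).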
